A study of Setaria italica with 24 samples.

Results

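A set of 61 genes of foxtail millet (Setaria italica) had read counts listed for the cultivar TT8 and for neither of the landraces Hanevalval and ISE36. They were chosen from the deposited tables as the genes that the TT8 table lists, that the tables of both landraces leave out, and whose mean normalised read count over the 8 TT8 libraries was at least 20. The 3 tables together list 26785 genes and that of TT8 lists 25318. At any level, 473 genes with a SETIT identifier were listed for TT8 alone. A further gene reached the same mean and is left out by the definition of the set. Absence from a table stands for low counts in that line and not for a missing gene: the lowest mean of any listed gene was 2.54 in Hanevalval and 2.29 in ISE36, and values below these were not analysed here. In TT8 every listed gene had at least 6 reads in at least 2 libraries.

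Roots of TT8, a cultivar from Taiwan, were compared after a mock treatment and after inoculation with the arbuscular mycorrhizal fungus (AMF) Claroideoglomus etunicatum, with 4 libraries for each treatment. The landraces were Hanevalval from Taiwan and ISE36 from India, which the library labels write as ICE36, with the same treatments and numbers, 24 libraries in all. All plants were raised from surface-sterilised seed and moved to cones 2 weeks after germination, and a part of the roots was taken for RNA at 6 weeks after inoculation. The sources do not say whether a library came from 1 plant or several, so the p-values measure the spread between these libraries. No mutant or transgene was involved. Reads of every line were aligned to 1 reference genome, so a TT8 read was counted where it matched that reference. How reads that match several near-identical genes were treated is not given in the sources used here, and levels of genes with such copies are uncertain.

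In arbuscular mycorrhizal (AM) symbiosis the fungus grows into the root cortex and forms arbuscules, branched structures inside cortical cells that the plant surrounds with its own membrane. Phosphate and other nutrients cross this membrane to the plant, and lipids and sugars cross to the fungus. A plant programme switched on in colonised cells serves this exchange. It includes phosphate transporters such as SiPHT1;9, the GRAS regulator RAM1, and the lipid supply proteins RAM2, FatM and STR2.

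The set is described by identifier, because the tables pair identifiers with no names and 0 of the 61 identifiers matched the RefSeq gene table. A single member carries a function in the study's own annotation: SETIT_017936mg, a glutamine amidotransferase, an enzyme type that moves the amide nitrogen of glutamine onto an acceptor molecule. Of the study's 54 orthologs of genes conserved for AM symbiosis, 0 were in the set. One of them, the AP2-domain transcription factor AP2d (SETIT_032213mg), was listed for TT8 alone with a mean below the limit of 20. It had 0, 0.976, 0.853 and 10.7 in mock replicates 1 to 4 and 15.3, 26.9, 12.6 and 20.9 in AMF replicates 1 to 4. Markers of root or leaf cell types were not checked for want of gene names.

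Reads on genes numbered 16543884 to 19557223 in the TT8 libraries, and 1 read was worth 0.853 to 1.18 units of the normalised read count used below. The 5 AM marker genes SiPHT1;9, RAM1, RAM2, STR2 and FatM were all called higher in AMF-treated TT8 roots. Their summed normalised read counts were 3782 to 7013 in the AMF-treated libraries and 10.2 to 21.4 in mock replicates 1, 2 and 3. In mock replicate 4 the sum was 135, equal to 2.74% of the mean of the AMF-treated libraries. Mock replicate 4 also stood apart over all genes, since its reads differed from the other mock-treated libraries by a chi-square per gene of 92.2 to 143, while those 3 differed among themselves by 25.0 to 46.2.

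Some of the 61 genes were detected almost wholly in AMF-treated roots and others under both treatments. A further 3 reached a mean of 20 under mock treatment alone. A gene was called when limma gave a difference of 2-fold or more and a Benjamini-Hochberg adjusted p, over the 24880 genes tested in TT8, no higher than 0.05. This called 27 of the 61 higher in AMF-treated roots (44.3%), where 10.6% of all tested genes were called higher. The same limits called 3 lower (4.92%), against 6.1% of all tested genes, and 31 were not called. The shares over all genes are less stable than the counts in the set: leaving out 1 library gave 1256 to 3700 genes called higher in place of 2633 and 708 to 2275 called lower in place of 1517, beside 26 to 28 and 3 to 5 in the set, and CPM scaling called 2476 of all genes lower and 4 in the set. In 28 genes the mean reached 20 under AMF treatment alone, in 3 under mock treatment alone and in 30 under both. The 28 and the 3 thus passed the limit on the mean through 1 treatment. Of the 27 genes called higher, 26 came from the first of these classes. Among the 30 present under both treatments, 1 was called higher and 2 lower. The classes rest on the same treatment values that the calls compare, so this division is no separate finding. Whether the limit itself favoured genes that differ was not tested. These counts describe the set and are no test of it. The shares over all tested genes cover means from 5 upward and any listing in the landraces. They are thus not shares over genes chosen as the set was. In whole roots, fewer cells of a type and less RNA per cell cannot be told apart. AMF-treated values lay above all mock-treated values in 30 genes and below them in 4, where 12.6% and 12.1% of all tested genes had no such overlap.

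**Figure D1:**
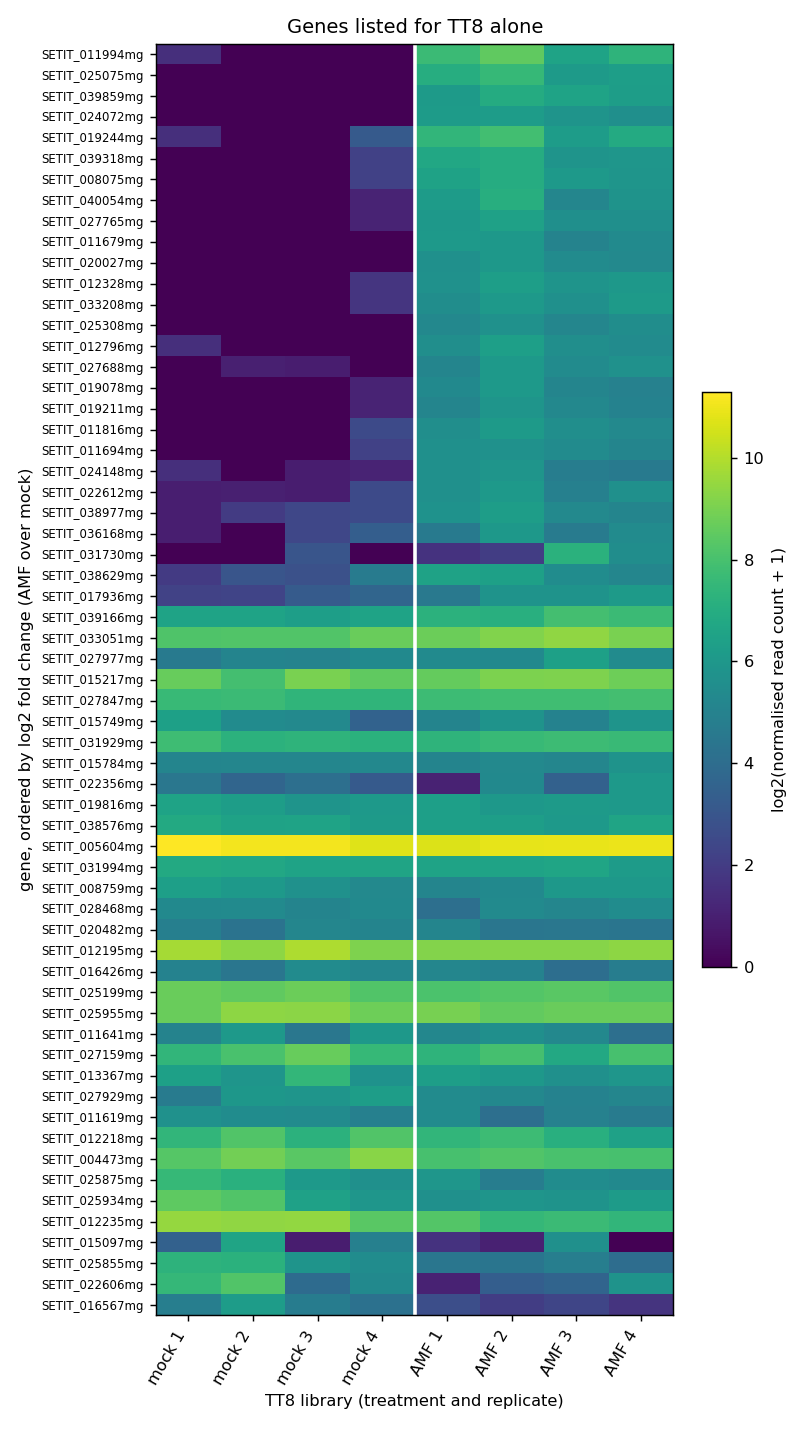
Normalised read counts, as log2(value + 1), of the 61 genes (rows, ordered by log2 fold change) in the 4 mock-treated and 4 AMF-treated TT8 libraries (columns). The upper rows are at or near 0 under mock treatment and filled under AMF treatment, and the 30 genes whose means are at least 20 under both treatments lie lower down.

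The genes called higher reached mean values of 38.8 to 206 in AMF-treated roots. In mock-treated roots 6 of them had 0 reads in every library, and 12 had 1 to 3 reads over the 4 libraries together. Where the mock-treated libraries held 0 reads, the fold is a lower bound set against 3 reads over the group. This bound takes the AMF-treated reads as they stand, without their counting error or the spread between libraries. Where the mock-treated libraries held 1 to 3 reads, the ratio is given with an exact interval. That interval covers counting error and not the spread between libraries, so bounds and intervals are not comparable.

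The highest level among them belonged to SETIT_011994mg. Its values were 1.86, 0, 0 and 0 in mock replicates 1 to 4 and 208, 365, 92.3 and 159 in AMF replicates 1 to 4. Every AMF-treated library was at least 92.3 while 3 of the 4 mock-treated libraries held no read. The ratio of AMF-treated to mock-treated reads was 427 (95% interval 118 to 3528), and the log2 fold change of 7.14 ± 0.51 (SE, limma adjusted p = 5.7e-05) is the highest of the set.

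No read was found in mock-treated roots for SETIT_025075mg, SETIT_039859mg, SETIT_024072mg and SETIT_011679mg. Values in AMF replicates 1 to 4 were 129.8, 189, 70.2 and 80.2 for SETIT_025075mg, which was at least 162-fold higher under AMF treatment (adjusted p = 1.5e-05, limma). Those of SETIT_039859mg were 69.8, 122, 92.3 and 75.8, at least 124-fold higher (adjusted p = 1.0e-05, limma). AMF replicate 2 was the highest library for both. For SETIT_024072mg the values were 72.0, 75.5, 55.6 and 48.3, at least 86.4-fold higher (adjusted p = 1.1e-05, limma). SETIT_011679mg had 67.6, 63.1, 32.5 and 40.6, at least 69.9-fold higher (adjusted p = 2.8e-05, limma), and here AMF replicate 1 exceeded replicate 2. The 2 other genes without a mock-treated read, SETIT_020027mg and SETIT_025308mg, were at least 67.0-fold and 58.2-fold higher, and were named after their values were seen.

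In SETIT_039318mg, SETIT_008075mg, SETIT_040054mg and SETIT_027765mg the mock-treated reads, between 1 and 3 per gene, all came from mock replicate 4. AMF replicates 1 to 4 of SETIT_039318mg stood at 109, 127, 56.6 and 59.3, a ratio of 121 (95% interval 41.1 to 590.4) and a log2 fold change of 5.84 ± 0.56 (SE, limma adjusted p = 2.7e-04). For SETIT_008075mg they were 88.3, 124, 65.0 and 58.2, a ratio of 116 (95% interval 39.2 to 564) and a log2 fold change of 5.80 ± 0.54 (SE, limma adjusted p = 2.4e-04). Both genes had their higher values in AMF replicates 1 and 2. SETIT_040054mg ranged more widely, with 73.1, 134, 35.6 and 54.9 and a ratio of 309 (95% interval 54.9 to 12228), and its log2 fold change was 5.79 ± 0.47 (SE, limma adjusted p = 1.1e-04). SETIT_027765mg had 64.3, 86.8, 48.2 and 48.3, a ratio of 256 (95% interval 45.5 to 10147) and a log2 fold change of 5.65 ± 0.39 (SE, limma adjusted p = 5.1e-05). The treatments did not overlap in any of these 4 genes. Without mock replicate 4 they had no mock-treated read, and the fitted log2 fold changes, which then depend on the pseudocount, were 6.39, 6.34, 6.07 and 5.93 in the same order.

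SETIT_019244mg was the second most abundant of the genes called higher that were near 0 under mock treatment. It stood at 1.86, 0, 0 and 8.29 in mock replicates 1 to 4 and at 172, 235, 74.4 and 119.7 in AMF replicates 1 to 4, a log2 fold change of 5.93 ± 0.72 (SE, limma adjusted p = 0.00109). Mock replicate 4 was again the highest mock-treated library, and without it the log2 fold change of SETIT_019244mg was 6.61.

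**Figure D2:**
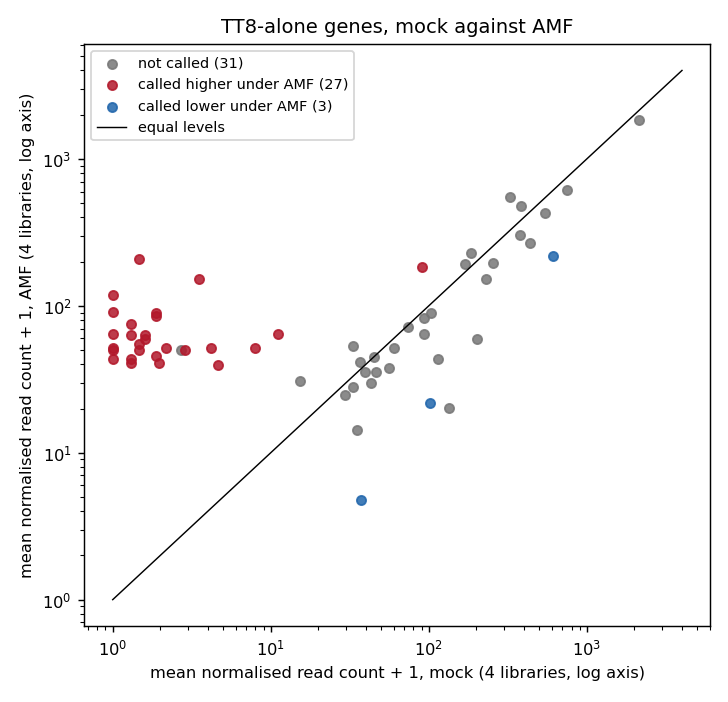
Mean normalised read count + 1 of each of the 61 genes in mock-treated (x axis) and AMF-treated (y axis) TT8 roots, 4 libraries each, on log axes. Most of the 27 genes called higher lie at the left edge, away from the line of equal levels, and most of the 31 genes not called lie along it.

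The glutamine amidotransferase gene SETIT_017936mg was detected under both treatments. Mock replicates 1 to 4 had 3.72, 3.90, 8.53 and 11.8 and AMF replicates 1 to 4 had 22.9, 54.8, 54.5 and 69.2, so the lowest AMF-treated value lay above the highest mock-treated one. Means were 7.00 ± 3.92 and 50.4 ± 19.5 (SD, n = 4 each), and the log2 fold change was 2.71 ± 0.45 (SE, limma adjusted p = 0.0064). It was called higher under all 17 alternatives, at log2 fold changes between 1.92 and 3.04. A different order of libraries was seen here, with AMF replicate 4 highest and AMF replicate 1 lowest.

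Of the 27 genes called higher, SETIT_039166mg alone had a mean of at least 20 in mock-treated roots, and it was named after its values were seen. It stood at 92.2, 92.7, 78.5 and 92.4 in mock replicates and at 153, 137, 238 and 204 in AMF replicates, with means of 88.9 ± 6.99 and 183 ± 46.4 (SD, n = 4 each). The log2 fold change of 1.00 ± 0.20 (SE, limma adjusted p = 0.0108) lies at the fold threshold. In 6 of 17 alternatives the call was lost, among them the fits without mock replicate 3, AMF replicate 3 or AMF replicate 4, while the log2 fold change stayed between 0.77 and 1.13.

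Most of the genes called higher with few mock-treated reads were highest in the same AMF-treated library. In 22 genes called higher with at most 12 reads over the 4 mock-treated libraries, the summed normalised read count was 1591, 2303, 1112 and 1262 in AMF replicates 1 to 4. AMF replicate 2 held the highest value in 20 of the 22 genes, and it was also the highest for 5 of the 5 AM marker genes, whose sums were 4462, 7013, 4473 and 3782. It was the highest AMF-treated library in 3 of the 31 genes not called, and the share over all tested genes was not counted. In mock replicates 1 to 4 the 22 genes had 9, 2, 3 and 33 reads in all. Mock replicate 4 reached 2.49% of the mean of the AMF-treated libraries, beside 2.74% for the AM marker genes. Mock replicates 1 to 3 reached 0.125% to 0.535%. The limit of 12 reads keeps these shares low by choice, and over all 27 genes called higher they were 5.33% to 9.34%. Of the 114 marker reads in mock replicate 4, 63 were of SiPHT1;9. What part the state of mock replicate 4 has in these values was not tested, but the fit without it called the same 27 genes higher.

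**Figure D3:**
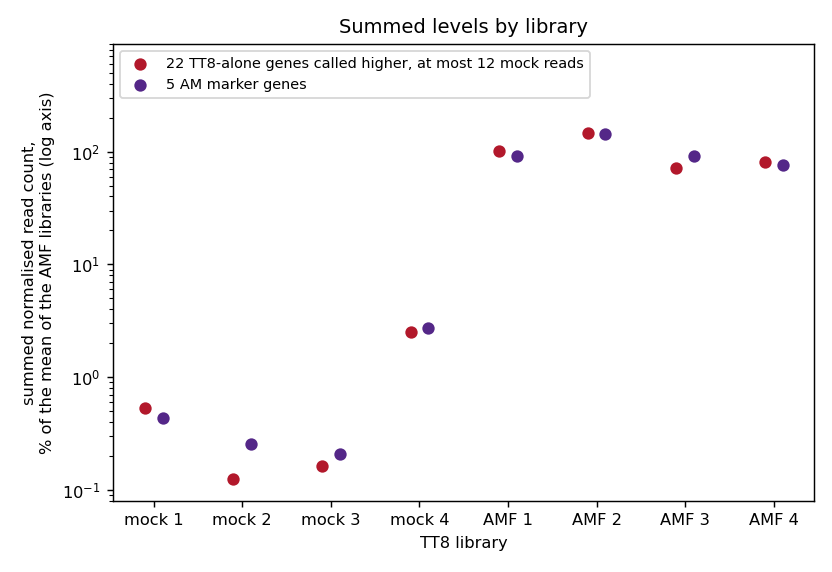
Summed normalised read counts in each TT8 library, as a percentage of the mean of the 4 AMF-treated libraries (log axis), for the 22 genes called higher with at most 12 mock-treated reads and for 5 AM marker genes. Both sums are highest in AMF replicate 2, at 147% and 142%, and among mock-treated libraries both are highest in replicate 4.

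Genes of this kind were not confined to the set. The TT8 table holds 121 genes with a mean of at least 20 that were called higher and had at most 12 mock-treated reads. Of these, 64 were listed in all 3 lines, 34 in TT8 and 1 landrace, and 23 in TT8 alone, of which 22 are in the set.

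The 3 genes called lower in AMF-treated roots differed in level. SETIT_016567mg had 27.0, 75.1, 25.6 and 17.8 in mock replicates 1 to 4 and 5.45, 3.10, 4.19 and 2.20 in AMF replicates 1 to 4, a log2 fold change of -2.81 ± 0.46 (SE, limma adjusted p = 0.00584). It has the lowest mean of the set, 20.1, and owes it to the mock-treated libraries. SETIT_025855mg had 156, 147, 56.3 and 43.8 and 20.7, 19.6, 27.3 and 15.4, a log2 fold change of -2.04 ± 0.43 (SE, limma adjusted p = 0.0136). Its mock replicates 1 and 2 were well above replicates 3 and 4, and all AMF-treated values lay below. SETIT_012235mg was far more abundant, with 716, 683, 705 and 339 and 309, 184, 203 and 169, and its log2 fold change was -1.47 ± 0.28 (SE, limma adjusted p = 0.0099). Mock replicate 4 of this gene lay closer to AMF replicate 1 than to the other mock-treated libraries. Each of the 3 was called lower under all 17 alternatives.

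**Figure D4:**
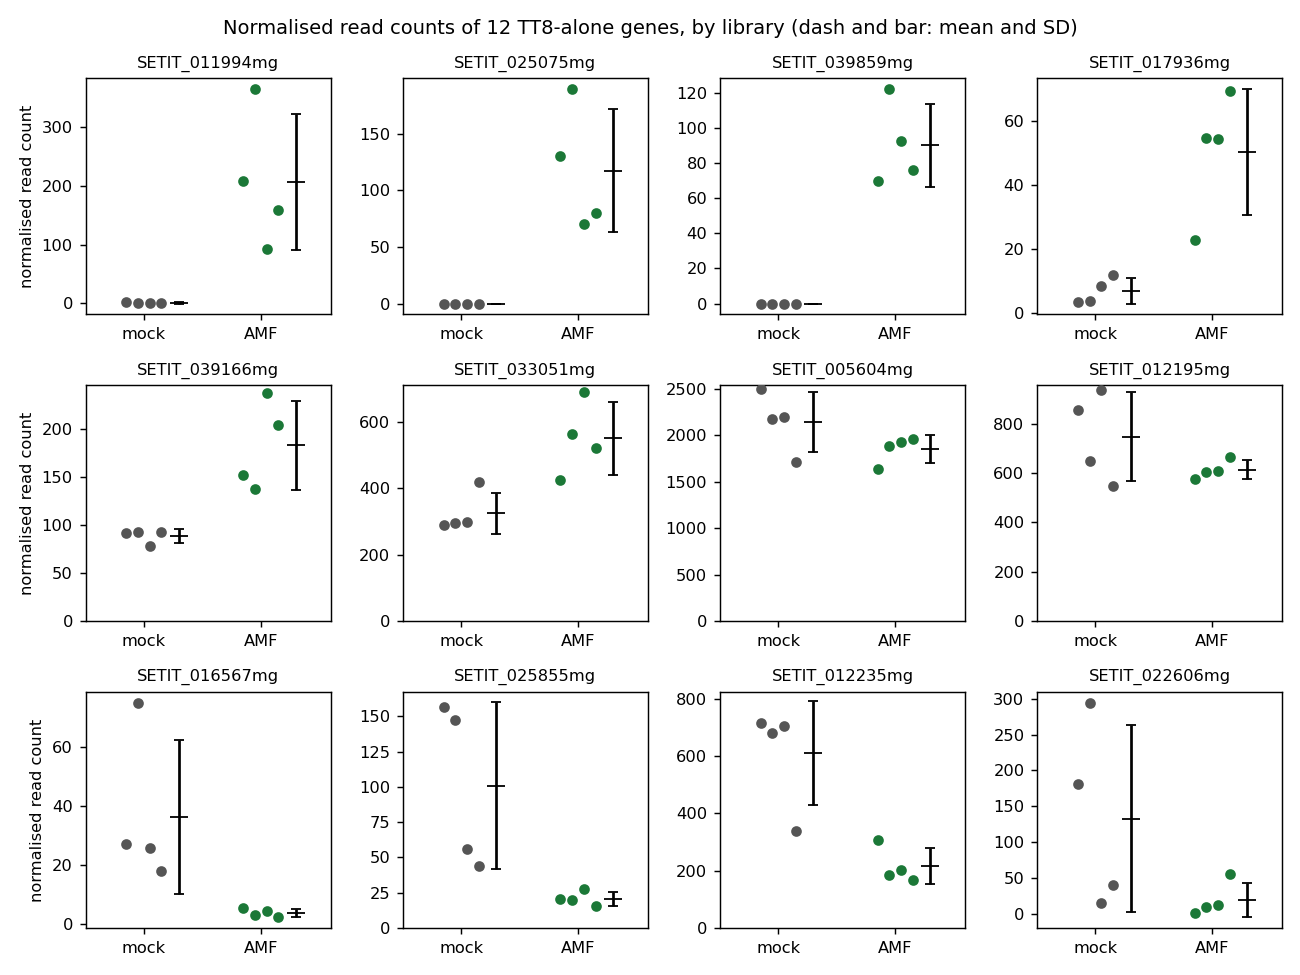
Normalised read counts of 12 of the 61 genes in each library (points, replicates 1 to 4 from left to right), with mean and SD. The first 5 panels show genes called higher, SETIT_016567mg, SETIT_025855mg and SETIT_012235mg were called lower, and the other 4 genes were not called.

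Of the 15 genes with a mean of at least 100, 3 were called and 12 were not, where 16.7% of all tested genes were called in either direction. SETIT_005604mg was the most abundant of all, with 2493, 2170.0, 2197 and 1709.6 in mock replicates 1 to 4 and 1632, 1877, 1930.1 and 1962 in AMF replicates 1 to 4. Its treatments overlapped and its log2 fold change was -0.20 ± 0.14 (SE, limma adjusted p = 0.284). Neither landrace listed this gene, while TT8 means were 2142 ± 323 and 1850.2 ± 149.8 (SD, n = 4 each).

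SETIT_012195mg had 856, 649.8, 937 and 549.7 in mock replicates and 577, 605, 609 and 667 in AMF replicates, and a log2 fold change of -0.25 ± 0.17 (SE, limma adjusted p = 0.278). SETIT_025955mg stood at 414, 656, 648 and 443 and 499.5, 378, 418 and 416, with a log2 fold change of -0.31 ± 0.18 (SE, limma adjusted p = 0.213). In both genes the AMF-treated libraries lay within or below the range of the mock-treated ones. SETIT_015217mg had 403, 243, 516 and 364 and 388, 525, 544 and 447, a log2 fold change of 0.36 ± 0.22 (SE, limma adjusted p = 0.243). SETIT_033051mg had 291, 297, 298 and 418 under mock treatment and 426, 564, 689.8 and 523 under AMF treatment. All AMF-treated libraries of this gene were above the mock-treated ones, and its log2 fold change of 0.75 ± 0.18 (SE, limma adjusted p = 0.0186) passed the threshold on p but not that on fold. SETIT_004473mg, named after its values were seen, likewise passed on p alone. Its values were 312, 476, 339 and 615 and then 257, 301, 262 and 254, a log2 fold change of -0.65 ± 0.21 (SE, limma adjusted p = 0.047).

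Over the 31 genes not called, 9 had positive and 22 negative log2 fold changes, and 26 lay within 1 of 0 on the log2 scale. At an unadjusted p under 0.05 there were 7. The median log2 fold change of the whole set was 0.36, beside -0.01 for all genes tested. It pools the genes called higher with the rest and describes neither.

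**Figure D5:**
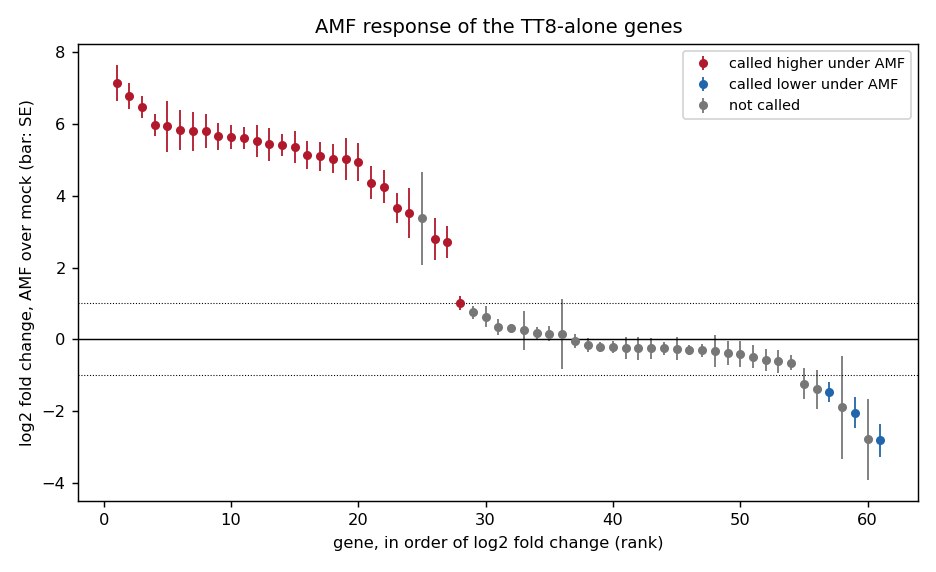
Log2 fold change of AMF-treated over mock-treated TT8 roots for each of the 61 genes, in rank order, with the SE from limma. Values run from 7.14 to -2.81, and the dotted lines mark the fold threshold at 1 and -1.

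The 5 uncalled genes with a fold of at least 2 had wide spreads between replicates, and those named here were chosen after their values were seen. SETIT_022606mg had 181, 295, 14.5 and 40.3 in mock replicates 1 to 4 and 1.09, 9.30, 11.5 and 54.9 in AMF replicates 1 to 4, a log2 fold change of -2.79 with an SE of 1.13 (adjusted p = 0.09, limma). SETIT_031730mg was high in AMF replicate 3 and, less so, in AMF replicate 4, with 0, 0, 6.82 and 0 under mock treatment and 2.18, 3.10, 147 and 45.0 under AMF treatment. Its log2 fold change was 3.37 ± 1.28 (SE, limma adjusted p = 0.0756), and it was called higher in the fit without AMF replicate 1 and in the fit with a replicate block. SETIT_015097mg showed no order by treatment, with 10.2, 96.6, 0.853 and 29.6 and then 2.18, 1.03, 50.3 and 0. Single libraries of these genes differed by more than the treatment means did.

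SETIT_025875mg and SETIT_025934mg had the same split of mock-treated libraries as SETIT_025855mg, with replicates 1 and 2 high. SETIT_025875mg had 188, 144, 68.2 and 49.8 under mock treatment and 59.99, 26.9, 44.0 and 39.5 under AMF treatment, a log2 fold change of -1.24 ± 0.43 (SE, limma adjusted p = 0.0582). SETIT_025934mg had 356, 301, 87.0 and 59.2 and 49.1, 58.9, 54.5 and 71.4, a log2 fold change of -1.39 ± 0.54 (SE, limma adjusted p = 0.0802). Both were called lower by DESeq2 and by edgeR on the recovered reads and in the limma fit without mock replicate 4, which brought the count of genes called lower to 5 in each case. SETIT_025875mg was called lower in 7 of 17 alternatives, which also include CPM scaling, quantile normalization, the replicate block and the fit without AMF replicate 1.

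At the limit on the mean, the members just inside were SETIT_016567mg, SETIT_019211mg and SETIT_024148mg, with means of 20.1, 20.2 and 20.4. SETIT_019211mg had 0, 0, 0 and 1.18 in mock replicates and 33.8, 57.9, 37.7 and 30.8 in AMF replicates, and SETIT_024148mg had 1.86, 0, 0.853 and 1.18 and 50.2, 58.9, 26.2 and 24.2. The genes just outside were SETIT_004358mg, SETIT_039795mg and SETIT_025320mg, with means of 19.5, 18.6 and 18.5. The first of these had 0.931, 0.976, 2.56 and 1.18 and 52.4, 44.5, 29.4 and 24.2, and the next 0.931, 0, 0 and 0 and 33.8, 46.5, 27.3 and 40.6, so genes near 0 in mock-treated roots stood on both sides of the limit.

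Genes listed for a single landrace by the same limit on the mean numbered 41 for Hanevalval and 120 for ISE36. In ISE36, limma with Benjamini-Hochberg adjustment called 7 of the 120 higher and 1 lower in AMF-treated roots, where 5.79% and 4.81% of all genes tested in that line were called. In Hanevalval it called 0 of the 41 in either direction, against 1.42% and 1.41% of all genes, with 5 higher and 2 lower when the p was left unadjusted, at 0.05 and 2-fold. The limma fit thus called few genes of any kind in Hanevalval, so the absence of calls there does not show a lack of response. The paper, which used DESeq2, reports more changed genes in Hanevalval than in TT8. It also names mock-treated Hanevalval as the exception to good clustering of replicates. No DESeq2 or edgeR result is given here for Hanevalval. The lines were fitted separately, and whether they differ in these shares was not tested.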

How the data were processed

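Per the submitters' processing notes the authors used Trimmomatic 0.38 for trimming, HISAT2 2.1.0 for alignment to S. italica genome v2.0, featureCounts 2.0.0 for reads per gene and DESeq2 1.26.0 for size factors. The deposited signal values are these normalised read counts, 1 table per line, without pooling of replicates. Every one of the 607864 values was a whole multiple of its library's step within 0.01 reads (100%), so whole reads were recovered for TT8. 0 columns lacked a sample.

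AMF-treated and mock-treated TT8 libraries were compared by limma 3.58.1, with an intensity trend in the variance, on log2(value + 1) of the genes whose mean reached 5, and p-values were adjusted over all of them. Fold changes on this scale understate those of low genes. DESeq2 1.42.0 and edgeR 4.0.16 on the recovered reads were alternatives, in R 4.3.3. In 1 simulation with 200 changed genes, limma recovered 93.5% with 4 false calls, edgeR 95.0% with 5 and DESeq2 97.0% with 39. Its changed genes had means of at least 50, so it does not cover genes near 0 under mock treatment. It changed 200 of 24880 genes, equally in both directions, while 16.7% of the tested genes were called in TT8. Its figures thus do not cover changes as many or as uneven as those. Other alternatives were pseudocounts of 0.5 and 8, no filter, no fold threshold, limits of 10 and 50 on the mean, CPM and quantile scaling, all 24 libraries in 1 fit, a replicate block and leaving out each library. Python 3.11.15 with pandas 2.3.3, scipy 1.17.1 and matplotlib 3.10.9 served for summaries and plots. Read counts of any 2 TT8 libraries of a treatment differed by a chi-square of 10.0 or more per gene, so none was a repeat of another.

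Named genes were up to 10 called in each direction with the largest fold changes, the 6 of highest mean, the 3 on either side of the limit, the 4 most abundant not called and the annotated member. Others were named after their values were seen. Members and lists were chosen with earlier results of these data known. Neighbouring genes, products, root and leaf markers, promoters and sequences were not analysed here, since 0 identifiers matched the reference table.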

Additional observations from a re-analysis of the deposited data

Results flagged for a closer look

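For the 36 genes whose values are given by library, each group of 4 libraries that was not all at 0 was examined, 66 groups in all. In 15 of them the highest or lowest library was set apart from the nearest of the others. The gap, as a share of the group's range, was past Dixon's 95% limit for 4 values. Normally distributed values pass this limit in about 1 in 20 groups. Where all other libraries hold no read, 1 read always passes it, so that rate does not apply to groups near 0. Of the 15 groups, 14 were mock-treated, and in 8 the library set apart held at most 3 reads.

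These 8 stand on 1 to 3 reads beside libraries at or near 0. Mock replicate 4 was set apart in SETIT_039318mg at 3.55, SETIT_008075mg at 3.55, SETIT_040054mg at 1.18, SETIT_027765mg at 1.18 and SETIT_019211mg at 1.18. Mock replicate 1 was set apart in SETIT_011994mg at 1.86 and SETIT_039795mg at 0.931, and mock replicate 3 in SETIT_004358mg at 2.56.

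In the other 7 groups more reads stood behind the value. In SETIT_016567mg mock replicate 2 stood at 75.1, where the next value was 27.0. Mock replicate 4 stood at 339 in SETIT_012235mg, below 683 in the next library, at 418 in SETIT_033051mg, above 298, and at 10.7 in AP2d (SETIT_032213mg), above 0.976. Mock replicate 3 stood at 78.5 in SETIT_039166mg, below 92.2, and at 6.82 in SETIT_031730mg, where the others had no read. The AMF-treated group was SETIT_015097mg, with 50.3 in AMF replicate 3 and 2.18 in the next library. Without mock replicate 2 the log2 fold change of SETIT_016567mg was -2.40, and without mock replicate 4 those of SETIT_012235mg and SETIT_033051mg were -1.73 and 0.88, with no change of call. SETIT_039166mg was no longer called without mock replicate 3. The part of these libraries in the results was not tested further.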

How the results depend on the processing

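The 27 genes called higher numbered 26 to 28 under the 17 alternatives that refit the data at the same thresholds, the same genes in each but for SETIT_039166mg lost and SETIT_031730mg gained, and without single libraries they were 26 to 28. The 3 genes called lower were 5 with DESeq2, 5 with edgeR and 3 to 5 without single libraries, 5 of them without mock replicate 4, since SETIT_025875mg and SETIT_025934mg were added. The cause of these changes was not tested. The set's median log2 fold change stayed positive, from 0.12 with CPM to 0.71. Over all TT8 genes, 2633 were called higher and 1517 lower. Without single libraries these counts were 1256 to 3700 and 708 to 2275, and both fell by more than 1.5 times without AMF replicate 2, 3 or 4 or mock replicate 2 or 3, and the lower count also without mock replicate 1, with CPM 2476 were lower, and without a fold threshold 3318 were lower, with 28 and 4 calls in the set. With CPM the median over all genes moved from -0.01 to -0.24 on the log2 scale and the share of calls that were higher from 63.4% to 46.5%, with 26 and 4 calls in the set. The set itself had 127 genes at a mean of at least 10 and 25 at a mean of at least 50.

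The replicate numbers are shared by the treatments, but nothing in the labels says that they pair the libraries. Deviations of same-numbered libraries from their group means correlated across genes at 0.06, 0.08, -0.10 and 0.16, and AMF replicates 1 and 3 correlated best with another number. With the replicate block 28 genes of the set were called higher and 4 lower, since SETIT_031730mg and SETIT_025875mg were added.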

Other observations

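On successive lines of the deposited TT8 table stand 2 pairs of members. The table does not say what its order is. SETIT_012218mg had 173, 295, 154 and 297 in mock replicates 1 to 4 and 170.1, 213, 138 and 85.7 in AMF replicates 1 to 4, and SETIT_011641mg, on the next line, had 31.7, 65.4, 21.3 and 64.0 and 36.0, 48.6, 37.7 and 16.5. In both genes mock replicates 2 and 4 were the highest libraries. Their log2 values correlated at 0.92 over the 8 libraries, a description in which both genes share each library's treatment and depth. SETIT_025855mg and SETIT_025875mg form the other pair, also at 0.92, with mock replicates 1 and 2 highest in both. Other members that follow one another at 3 to 6 lines correlated at 0.999, -0.50, -0.23 and -0.63.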
